A study of Micropterus salmoides with 24 samples.

Results

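The 200 transcripts described here were abundant in trunk kidney and were counted rarely in head kidney of largemouth bass (Micropterus salmoides), a freshwater fish. They were chosen in 3 steps from 78435 transcript contigs, which are sequences put together from overlapping reads. Each contig's level was its count per 1000000 counts of the library (CPM), with contigs missing from a library's list taken as 0. Contigs with at least 1 count in some head library and a trunk mean at least 64 times the head mean numbered 2443. The 200 of these with the highest trunk mean are called the members.

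Adult males had spent 21 days in clean water (control), in water with glyphosate, or in water with Rodeo, a commercial herbicide based on glyphosate. The nominal concentration was 10 mg/L of glyphosate in either case, and no other allele, strain or agent is given. Head and trunk kidney of each treatment were represented by 4 libraries each, 24 in all, from polyadenylated RNA of whole tissue pieces. Fish were kept several to a tank in replicate tanks, and the labels tie no library to a tank or a fish, so p-values cover only the spread among libraries. A library is named here by tissue, treatment and the number in its label, as in head glyphosate 3.

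In bony fish the trunk kidney carries most nephrons, in which glomeruli filter the blood and tubules recover salts, sugars and proteins from the filtrate. The head kidney is mainly a blood-forming and immune organ, and it also holds interrenal cells, which make cortisol, and chromaffin cells, which make catecholamines. Glyphosate blocks an enzyme of aromatic amino acid synthesis in plants that animals lack. The identifiers carry no gene names (0 of them matched the gene table used here), so no role is given for any member, no sequence is shown and the labelled tissues were not checked against marker genes.

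Library totals ran from 9871623 counts in head control 3 to 29858387 in trunk control 2. One check touches every treatment comparison. Across 58 contigs that were on in some libraries and off in others in both tissues, 8 head libraries each had 1 trunk library as mutual best match, alike for 98.3% to 100% of those contigs, against at most 87.9% in other pairs. Of these 8 pairs, 0 had the same treatment label. Head control 2 paired with trunk glyphosate 4, head control 3 with trunk Rodeo 1, head control 4 with trunk Rodeo 2, head glyphosate 1 with trunk Rodeo 4, head glyphosate 3 with trunk control 1, head glyphosate 4 with trunk control 2, head Rodeo 1 with trunk control 3 and head Rodeo 3 with trunk glyphosate 1. None of the 58 contigs was a member (0). The labels do not say which libraries come from 1 fish. Whether the treatment labels of one tissue, or of both, are wrong for these libraries was not tested, and a treatment named below is the library's label. Were they wrong, the treatment comparisons would not be those their names say. Values from the 4 trunk and 4 head libraries outside the pairs are given beside the comparisons. These libraries had no match, so their labels were not checked either, and values from them cannot settle whether labels are right.

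Trunk mean CPM of the members, one of the 2 values that chose them, ran from 131.9 to 3868 with a median of 237. Head mean CPM, the other, ran from 0.00456 to 18.8 with a median of 0.601. The ratio of the means ran from 64.01 to 45256 with a median of 455. Just inside the limit of rank stood isotig129207 and LMB_Assem.4212.C1, at trunk means of 131.98 and 131.92 CPM. Just outside it stood isotig125902 and isotig83941, at 131.69 and 131.56 CPM. At the limit of the ratio, contig11034 (64.01) and LMB_Assem.936.C2 (65.5) lay inside, and LMB_Assem.3182.C1 (59.5) and LMB_Assem.72.C1 (58.8) outside. Levels of different contigs are not corrected for length, so their order is an order of read numbers.

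**Figure D1:**
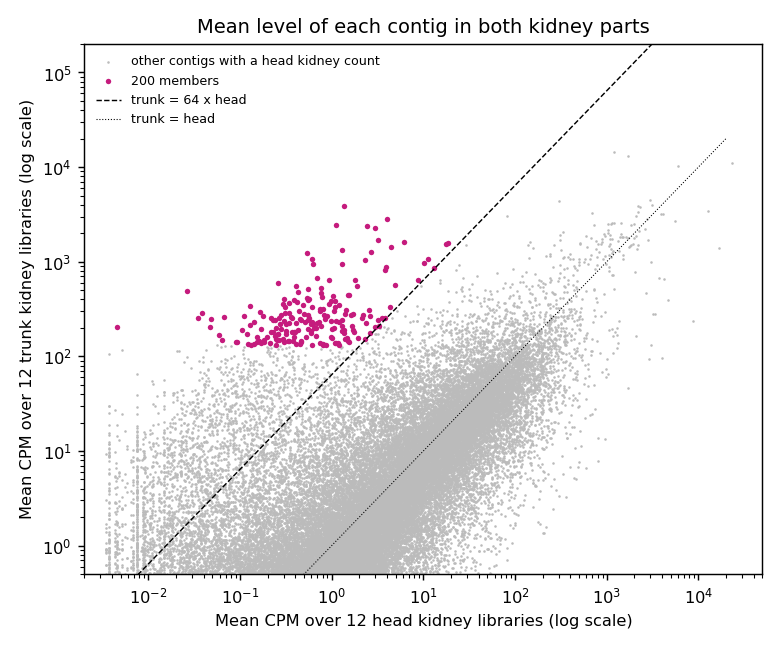
Mean CPM over 12 head libraries (x axis, log scale) and over 12 trunk libraries (y axis, log scale) for contigs with a head count, grey for other contigs and magenta for the 200 members. The y axis starts at 0.5 CPM, and the dashed line marks 64 times the head mean, above which all 200 members lie by choice.

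By library rather than by mean, 193 of the 200 members were lower in every head library than in any trunk library. The rule used the means of these same values, so this describes the choice and is no further support for it. In head kidney, 42 members had a count in all 12 libraries and 65 in at most 6. By kind of identifier, 105 members (52.5%) were LMB_Assem contigs, against 31.95% of all contigs. Another 63 (31.5%) were named contig, against 9.80% of all, and 32 (16%) isotig, against 58.2% of all. The 105 LMB_Assem members included 38 with the number 0 in the identifier and 3 pairs that shared another number.

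The members took 5.36% to 10.2% of the counts of a trunk library. In controls 1 to 4 their share was 6.88%, 5.36%, 7.93% and 7.34% (6.88 ± 1.10%, SD, n = 4). In the glyphosate libraries it was 8.72%, 6.98%, 10.2% and 9.35% (8.82 ± 1.38%, n = 4), and in the Rodeo libraries 7.40%, 5.95%, 8.81% and 9.63% (7.95 ± 1.62%, n = 4). By library totals the 3 groups overlapped, with trunk control 2 and trunk Rodeo 2 lowest and trunk glyphosate 3 highest. On CPM scaled by TMM, as in the comparisons below, the sum was 5.23% to 7.28% in controls and 7.78% to 15.2% in glyphosate. In Rodeo it was 4.89% to 10.5%. On that scale glyphosate did not overlap control, and Rodeo overlapped both. The sums were not tested, and the trunk mean that chose the members takes in these libraries. The 10 members of highest mean supplied 27.5% of the members' trunk CPM.

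**Figure D2:**
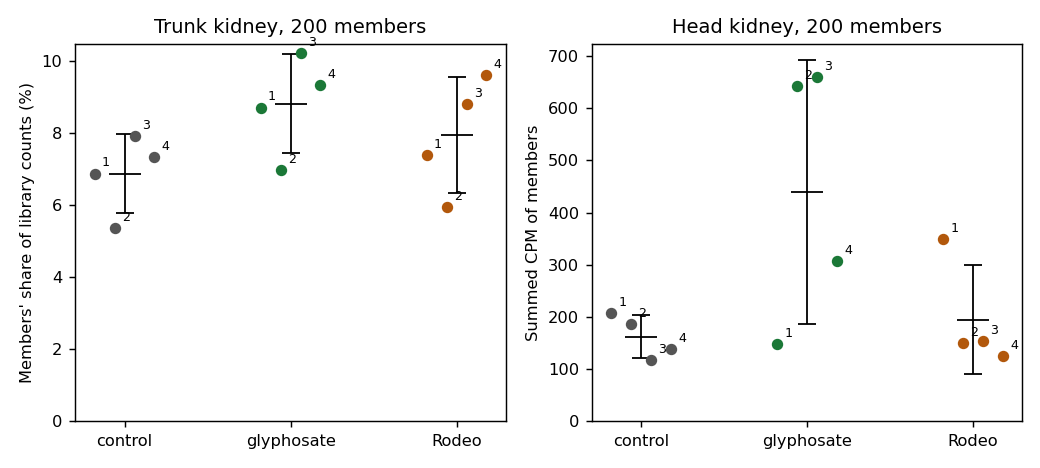
Share of trunk library counts taken by the 200 members (left, percent) and their summed CPM in head libraries (right), with 1 point per library numbered by replicate, and the mean and SD of each group of 4 in black. In trunk the groups overlap on this scale of library totals. In head the libraries glyphosate 2 and 3 stand at 643 and 661 CPM and all others at or below 350 CPM.

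The 5 members of highest trunk mean did not peak in the same libraries. LMB_Assem.1103.C5, the most abundant, stood at 2355, 813, 1056 and 3209 CPM in trunk controls 1 to 4, at 4484, 2276, 8564 and 6677 CPM in glyphosate, and at 2316, 1207, 10121 and 3335 CPM in Rodeo. LMB_Assem.0.C7478 stood at 1045, 2377, 5294 and 3455 CPM in the controls, 2520, 1352, 3391 and 2127 CPM in glyphosate, and 2870, 1688, 2286 and 5899 CPM in Rodeo. The first was highest in Rodeo 3 and the second in Rodeo 4, and for both the 3 groups overlapped by library totals. On CPM scaled by TMM, the controls of the first all lay below its glyphosate libraries.

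LMB_Assem.12714.C1 had a wider span, with 699, 6805, 1214 and 240 CPM in controls, 3574, 6071, 38.9 and 1817 CPM in glyphosate, and 1618, 1623, 2603 and 3197 CPM in Rodeo. Its lowest library, trunk glyphosate 3, was the one in which LMB_Assem.1103.C5 reached 8564 CPM. LMB_Assem.0.CB3106 stood at 3462, 1347, 2178 and 1776 CPM in controls, 3117, 977, 4578 and 1083 CPM in glyphosate, and 2146, 1393, 428 and 4604 CPM in Rodeo, again with overlapping groups.

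LMB_Assem.12656.C1, the fourth by trunk mean, was on in 5 trunk libraries and near off in 7. It stood at 1.03, 1.005, 2103 and 38.8 CPM in controls, at 4549, 2.10, 3.12 and 7877 CPM in glyphosate, and at 9.34, 5.77, 6374 and 7695 CPM in Rodeo. LMB_Assem.2770.C1 was high in the same 5 libraries, at 385 CPM in control 3, 734 and 744 CPM in glyphosate 1 and 4, and 580 and 712 CPM in Rodeo 3 and 4, and was at or below 4.96 CPM in the other 7. Each of the 3 groups held both states, so the split does not follow the treatment labels. Of the members 1% were on/off in trunk in this way, against 0.747% of all contigs that reached 1.5 log2 CPM in some trunk library. Those contigs were not matched to the members in abundance.

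Head kidney showed no such gap for these 2 contigs, and the 8 matched pairs did not share 1 order of level. LMB_Assem.12656.C1 had 18.6 CPM in head glyphosate 3 and 1.03 CPM in its match, trunk control 1, and 1.51 CPM in head glyphosate 4 and 1.005 CPM in its match, trunk control 2. In the other 6 pairs the trunk library was higher. Head Rodeo 3 had 7.49 CPM and head Rodeo 1 had 0.230 CPM, with 4549 and 2103 CPM in their matches. Head controls 2, 3 and 4 and head glyphosate 1 were at 0, with 7877, 9.34, 5.77 and 7695 CPM in theirs.

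Between libraries of the trunk, the coefficient of variation of a member ran from 0.137 to 3.36 with a median of 0.434. It was under 0.5 for 121 members and over 1 for 15. The steadiest, contig40255, stayed between 180 CPM (glyphosate 1) and 309 CPM (control 2). The least steady, LMB_Assem.1428.C7, stood at 3136 CPM in glyphosate 4 and at or below 44.0 CPM in the other 11. It owed its trunk mean, and so its place among the members, to that 1 library.

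**Figure D3:**
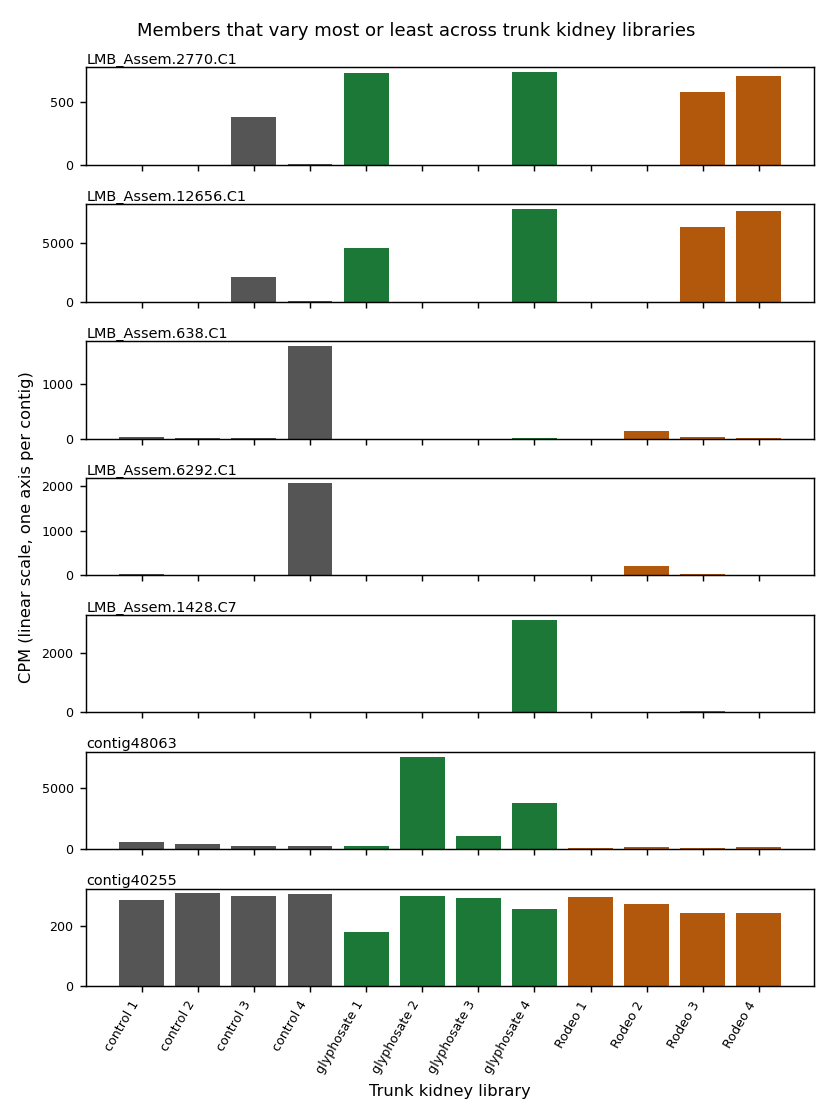
CPM of 7 members in the 12 trunk libraries (bars, 1 per library, linear axis from 0 for each contig; grey control, green glyphosate, orange Rodeo). The upper 2 contigs are high in the same 5 libraries, the next 2 in control 4, LMB_Assem.1428.C7 in glyphosate 4, contig48063 in 3 glyphosate libraries, and contig40255 lies between 180 and 309 CPM throughout.

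For glyphosate against control in trunk kidney, the members lay on balance higher, but no member passed the test. Comparisons between treatments use CPM on library sizes scaled by TMM within the tissue (scaled CPM) and edgeR's quasi-likelihood test over all contigs kept by its count filter, with Benjamini-Hochberg adjustment at 0.05. All 200 members were tested in trunk. Called members numbered 0 of 200, and 0% of the 43072 contigs tested were called. DESeq2, run as a second tool, called 15 members, all of them higher, and left 4 members without an adjusted p. Over all contigs it called 41, or 1.92% of the 2135 contigs it left with an adjusted p. That base is not the 43072 contigs of the other shares. At an unadjusted p under 0.05 stood 67 members (33.5%), against 10.5% of all contigs tested, and 64 of them (32%) were higher, against 5.78% of all. The median log2 fold change was 0.58 over the members and -0.08 over all contigs tested. Above 0 were 83% of the members and 45.2% of all contigs. In each trunk comparison, the trunk mean that chose the members takes in the libraries compared. A contig high in some of them was thus favoured, and all contigs tested were not matched to the members in abundance. The shift of the members against all contigs is therefore a description only.

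The count also moved with single libraries, and the share over all contigs moved too. When 1 was left out it was lowest without glyphosate 3, at 41 (20.5%, against 7.48% of all contigs). It was highest without glyphosate 1, at 83 (41.5%, against 19.1%). It was 42 (21%, against 6.55%) without glyphosate 4 and 43 (21.5%, against 5.54%) without control 3.

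The count depended on the scaling as well. TMM factors were 0.616 to 1.13 in the glyphosate libraries and 0.948 to 1.33 in the controls. With library totals instead, the median over all contigs moved to -0.53 and that over the members to 0.11, with 54.5% of the members above 0. At an unadjusted p under 0.05 then stood 35 members (17.5%, 26 higher and 9 lower), against 13.98% of all contigs. Without regard to direction, the members' share thus lay near that of all contigs under this scaling. Shares of all contigs by direction were not counted with library totals. The members' median stood above that of all contigs by 0.66 with TMM and by 0.64 with library totals. On scaled CPM, with TMM, groups that did not overlap were seen for 11 members (5.5%), against 4.18% of all contigs. All 11 were higher on that scale, against 1.46% of all, and this was not counted with library totals. Contigs at least 8 times higher in head than in trunk, the opposite class, took 1.06 ± 0.153% of trunk control counts and 0.781 ± 0.154% of trunk glyphosate counts (SD, n = 4 each), and their part in the members' levels was not tested. In bulk tissue, more cells of a type and more RNA per cell cannot be told apart.

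**Figure D4:**
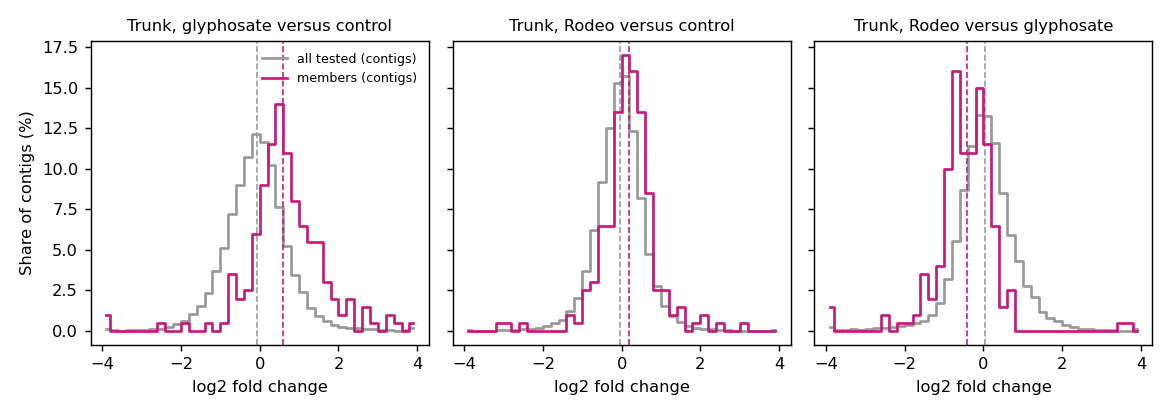
Distribution of log2 fold changes (x axis, bins of contigs, values beyond 4 in either direction put in the end bins) as percent of contigs (y axis) for all contigs tested (grey) and the 200 members (magenta), in the 3 trunk comparisons, with dashed lines at the medians. The members' median lies at 0.58 for glyphosate against control, 0.18 for Rodeo against control and -0.43 for Rodeo against glyphosate.

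The higher members of smallest p in this comparison were isotig90506 and contig48063. Scaled CPM of isotig90506 was 88.2, 77.2, 82.7 and 101 in controls and 181, 243, 570 and 216 in glyphosate, and the groups did not overlap (log2 fold change 1.79 with an SE of 0.41, edgeR adjusted p = 0.461). For contig48063 it was 646, 392, 207 and 190 in controls and 229, 9382, 1370 and 6062 in glyphosate. The groups overlapped, since glyphosate 1 lay among the controls, and the log2 fold change of 3.57 (SE 0.87) did not pass (edgeR adjusted p = 0.461).

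The lower members of smallest p, LMB_Assem.638.C1 and LMB_Assem.6292.C1, rested on 1 control library, control 4. Both owed their trunk mean, and so their place among the members, to that library. The choice of members thus favoured a higher level in controls for these 2. LMB_Assem.638.C1 had scaled CPM of 27.6, 2.84, 1.96 and 1329 in controls and of 0.0365, 0.728, 0.381 and 10.3 in glyphosate. LMB_Assem.6292.C1 had 31.4, 6.41, 2.39 and 1639 in controls and 0.0730, 0.777, 0.326 and 16.8 in glyphosate. Control 4 was the highest and glyphosate 4 lay above 2 of the controls in both. Their log2 fold changes were -6.94 (SE 2.39) and -6.57 (SE 2.45), neither past the threshold (edgeR adjusted p = 0.461 for both). Across trunk libraries these 2 contigs had a correlation of 0.99 with each other.

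For Rodeo against control in trunk kidney, the members' median lay above that of all contigs by less than for glyphosate, and no member passed the test. Called members numbered 0 of 200, against 0.0186% of all contigs tested (8 contigs), and DESeq2 called 1 member, against 0.147%. At an unadjusted p under 0.05 stood 11 members (5.5%), against 4.64%, and 8 of them (4%) were higher, against 1.66%. In place of 11 the count was 17 (8.5%, against 4.63%) without control 1 and 6 (3%, against 3.17%) without control 2. Without Rodeo 3 it was 7 (3.5%, against 2.65%). Groups without overlap numbered 7 (3.5%), against 4.43%. Of these 5 (2.5%) were higher, against 2.06% of all contigs, and 2 (1%) lower, against 2.37%. The median log2 fold change was 0.18 over the members and -0.03 over all contigs, with 65% of the members and 47.7% of all contigs above 0. With 1 library left out the members' median ran from 0.05 (without Rodeo 4) to 0.33 (without control 1).

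The lower member of smallest p, contig02496, had scaled CPM of 266, 250, 332 and 343 in controls and 152, 190, 110 and 136 in Rodeo (log2 fold change -1.02 with an SE of 0.25, edgeR adjusted p = 0.814). The groups did not overlap, and its glyphosate libraries were at 335 to 365. The next lower, isotig126647, had a log2 fold change of -0.91 (SE 0.28, edgeR adjusted p = 0.972). Among higher members, contig46974 had 79.7, 61.4, 86.1 and 133 in controls and 245, 440, 318 and 432 in Rodeo, without overlap (log2 fold change 2.00 with an SE of 0.61, edgeR adjusted p = 0.972). LMB_Assem.0.C9278 was at 53.8 to 178 in controls and 151 to 338 in Rodeo, with overlap (log2 fold change 1.40 with an SE of 0.49, edgeR adjusted p = 0.972).

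Rodeo against glyphosate compares the product with its active ingredient at one nominal concentration. Called members numbered 0 of 200, and 0% of all contigs were called, while DESeq2 called 6 members, against 0.753%. At an unadjusted p under 0.05 stood 31 members (15.5%), against 7.65% of all contigs. All 31 were lower in Rodeo, against 4.68% of all. With 1 library left out the count ran from 15 to 53. It was 15 without glyphosate 4 (7.5%, against 4.62% of all contigs), with 2 of them higher. Without Rodeo 2 it was 17 (8.5%, against 5.32%) and without Rodeo 1 it was 18 (9%, against 4.86%). Without glyphosate 1 it was 53 (26.5%, against 15.4%), 2 of them higher. Without glyphosate 3 it was 29 (14.5%, against 9.63%), 4 of them higher. Groups without overlap numbered 6 (3%), against 4.19%. All 6 were lower in Rodeo, against 1.89% of all contigs, and 0 were higher, against 2.3%. The median log2 fold change was -0.43 over the members and 0.03 over all contigs with TMM, and 23% of the members and 52.1% of all contigs were above 0. With library totals the medians were 0.02 and 0.42, and 52% of the members were above 0 in place of 23%, with 13 members (6.5%) at an unadjusted p under 0.05, against 9.28% of all contigs. This comparison shares its glyphosate libraries with the first and its Rodeo libraries with the second, so the 3 are not independent.

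The lower members of smallest p were isotig126647 and contig48063. Scaled CPM of isotig126647 was 282, 359, 377 and 409 in glyphosate and 81.2, 125, 125 and 141 in Rodeo, without overlap, and 201, 150, 242 and 297 in controls (log2 fold change -1.59 with an SE of 0.29, edgeR adjusted p = 0.126). For contig48063 the Rodeo values were 99.2, 145, 138 and 233, and the highest lay just above glyphosate 1 at 229 (log2 fold change -4.79 with an SE of 0.92, edgeR adjusted p = 0.145). The higher members were LMB_Assem.638.C1 and LMB_Assem.6292.C1 again, with log2 fold changes of 3.77 (SE 2.08, edgeR adjusted p = 0.667) and 3.57 (SE 2.14, edgeR adjusted p = 0.678). Their Rodeo values ran from 0.0730 to 115 and from 0 to 166 scaled CPM, highest in Rodeo 2.

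With only the 4 trunk libraries outside the matched pairs (control 4, glyphosate 2 and 3, Rodeo 3), the members' median log2 fold change was 0.75 for glyphosate against control, 0.31 for Rodeo against control and -0.44 for Rodeo against glyphosate. In those fits 11, 7 and 7 members were called, against 0.521%, 0.4% and 0.329% of all contigs. Only the glyphosate group then has more than 1 library, and the single libraries of the other groups are assumed to vary like those 2. The calls included LMB_Assem.638.C1 and LMB_Assem.6292.C1, for which this choice of libraries sets control 4 alone against glyphosate.

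In head kidney the members' sum varied more within the glyphosate group than between the other groups. Summed over the 200 members, CPM was 207, 185, 117 and 137 in controls (162 ± 41.6, SD, n = 4), 148, 643, 661 and 307 in glyphosate (440 ± 254, n = 4), and 350, 149, 154 and 124 in Rodeo (194 ± 104, n = 4). Glyphosate 2 and 3 were high, while glyphosate 1 lay among the controls. The number of members with a count was 155, 115, 73 and 103 in controls, 82, 147, 197 and 175 in glyphosate, and 186, 166, 133 and 103 in Rodeo. The 2 shallowest libraries, control 3 and glyphosate 1, had the fewest. With every library thinned to 9000000 counts, head control 3 still had 73 members, glyphosate 1 had 80 and glyphosate 3 had 195.

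Head glyphosate 3 and head glyphosate 2 reached their high sums in different ways. In glyphosate 2, 57.3% of the members' counts came from LMB_Assem.12773.C1 (190 CPM) and LMB_Assem.4103.C1 (179 CPM), and the sum without them was 275 CPM. In glyphosate 3 the largest single member supplied 6.30% of the sum, and this library was the highest of the 12 head libraries for 120 of the 200 members. The next was Rodeo 1, highest for 21. Head glyphosate 3 held 25.3% of all head counts of the members and 11.1% of all head counts, and 64 members had more counts there than in the other 11 head libraries together.

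The high levels in head glyphosate 3 extended to contigs that were not members. This library was the highest head library for 34.6% of the other contigs that met the ratio of 64. The members stood at a median of 0.826% of their trunk mean in that library (quartiles 0.522% and 1.23%), and the other contigs of that ratio at 0.760%. In the other head libraries the members' median ran from 0% to 0.394% of the trunk mean, the top of that range in Rodeo 1. The rule sets the head mean against the trunk mean, so these shares are a description only. Marker genes were not set beside this, and the part that the make-up of the dissected piece plays in it was not tested.

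Covariation across the 12 head libraries was described over the 102 members that passed the count filter there, a filter that a member could pass through the libraries where it is high. The pairwise correlation of log2 CPM had a mean of 0.29 and a median of 0.31 (quartiles 0.08 and 0.52), and 81.9% of pairs were above 0. For the 78 other contigs of the ratio that passed, the mean was 0.10, and for all 38656 contigs tested 0.02. The points of each correlation are the same 12 libraries, with their shared depth and treatment. One axis carried 47.6% of the members' variance, against 19.8% for the 78 other contigs and 26.2% for all contigs. Neither set was matched to the members in abundance or in values at 0.

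Without head glyphosate 3 the mean correlation of the members was 0.18. In that library 97.1% of the 102 members lay above their own mean over libraries, with a median deviation of 1.77 on the log2 scale, and 92.3% of the other contigs of the ratio did so, with a median of 1.04. Over all contigs tested 58.1% did. Rodeo 1 followed with a median deviation of the members of 1.15, and control 3 was the lowest at -1.44. Control 3 was the shallowest head library, and 73 of the 200 members had a count there. For a member at 0 the log2 value is set by the prior count of 2. Members at 0 in the same libraries share such floor values, which enter their correlations and low deviations.

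**Figure D5:**
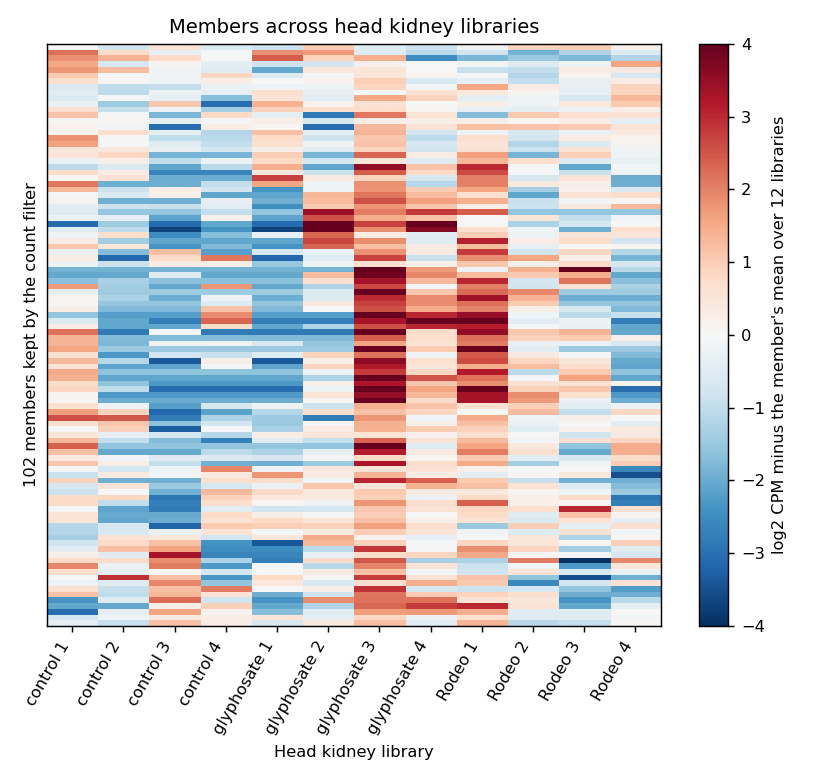
Log2 CPM of 102 members (rows, in the order of an average-linkage tree) minus each member's mean over the 12 head libraries (columns), from blue (low) to red (high), with colours held at 4 and -4. The column of glyphosate 3 is red for 97.1% of rows, Rodeo 1 follows, and a short block of rows is red in glyphosate 2.

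Cut at a mean correlation of 0.5, the tree gave 3 head groups of at least 10 members, with 59 of the 102 in them. The first, of 38 members, had a median log2 deviation of 2.90 in glyphosate 3, 2.06 in Rodeo 1 and 0.81 in glyphosate 4, and of -1.77 in control 3 and -1.72 in glyphosate 1. Its median CPM was 0 in control 3 and in glyphosate 1, so the low values there reflect the floor set by the prior count. LMB_Assem.1103.C5 belonged to it, with 0.430, 0, 0 and 0 CPM in head controls, 0, 0.821, 6.08 and 1.51 CPM in glyphosate and 4.76, 2.06, 0.729 and 0 CPM in Rodeo. Its closest partner was isotig45016 (r = 0.98 over the 12 libraries), at 8.37 CPM in glyphosate 3 and 3.96 CPM in Rodeo 1. Both were at 0 in head controls 2, 3 and 4, glyphosate 1 and Rodeo 4, and these shared floor values enter that r. LMB_Assem.0.C7478, also of this group, had 24.7 CPM in glyphosate 3, 14.5 CPM in Rodeo 1 and at most 3.17 CPM elsewhere. A value of 0 in a head library allows up to 0.123 to 0.304 CPM, the level of 3 counts in the deepest and the shallowest, by counting error alone.

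The second group, of 11 members, was high in glyphosate 2 (median log2 deviation 2.33), glyphosate 3 (1.86), glyphosate 4 (1.18) and Rodeo 1 (0.999) and low in glyphosate 1 (-2.11) and control 3 (-2.07). The group's median CPM was 0 in glyphosate 1 and in control 3 as well. It held LMB_Assem.12773.C1 and LMB_Assem.4103.C1. The third, of 10 members, was high in Rodeo 1 (1.48), glyphosate 3 (1.25) and glyphosate 1 (0.87) and low in control 3 (-1.44). It held LMB_Assem.915.CB4, at 29.5, 10.6, 4.05 and 5.23 CPM in head controls, 15.96, 6.07, 19.3 and 5.25 CPM in glyphosate, and 13.1, 5.98, 11.1 and 9.46 CPM in Rodeo. Glyphosate 3 and Rodeo 1 were thus high in all 3 groups, while glyphosate 2 was high in the second and below the mean in the others, and glyphosate 1 was high in the third only.

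By mean correlation with the other members across head libraries, LMB_Assem.7621.C1 (0.51) and isotig45016 (0.50) were highest. LMB_Assem.7621.C1 had 5.31 CPM in glyphosate 3, 4.36 CPM in Rodeo 1 and at most 0.753 CPM elsewhere. The lowest were contig48063 (-0.11) and contig50137 (-0.09). In head kidney contig48063 was highest in control 1 at 1.67 CPM and stood at 0.180 CPM in glyphosate 3, and contig50137 was highest in glyphosate 2 at 4.10 CPM and stood at 1.13 CPM in glyphosate 3.

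Across trunk libraries all 200 members entered, and the mean pairwise correlation was 0.26 (median 0.29), against 0.04 for the other 2203 contigs of the ratio that passed and 0.01 for all contigs tested. With library totals in place of TMM the members' mean was 0.14, and that of the other contigs was not computed on that scale. The trunk mean that chose the members takes in these same 12 libraries, so contigs high in the same libraries were favoured together. By the rule the other contigs of the ratio have lower trunk means, and all contigs tested were not matched to the members in abundance. The members' correlation beside theirs is therefore a description only. Trunk groups of at least 10 numbered 4, with 63, 35, 25 and 11 members. The first was high in glyphosate 3 (median log2 deviation 1.21) and glyphosate 4 (1.06) and low in control 2 (-1.05). The second was high in glyphosate 3 (1.11) and low in control 2 (-1.04) and glyphosate 2 (-0.60). The third was high in glyphosate 4 (1.13), glyphosate 3 (0.50) and glyphosate 2 (0.45). The fourth was highest in Rodeo 4 (0.69) and lowest in Rodeo 3 (-0.92). Glyphosate 1 lay near the middle in the first 2, at -0.07 and 0.02. These deviations are on CPM scaled by TMM, with a factor of 0.616 for glyphosate 4, the lowest in trunk. By library totals the third group's median CPM was 251 in glyphosate 4, 259 in glyphosate 3, 288 in glyphosate 2 and 261 in control 3. Its sum was 14107 CPM in glyphosate 4 and 8945 CPM in control 3. The first group's median was 437 CPM in glyphosate 3, 308 CPM in glyphosate 4 and 297 CPM in Rodeo 3.

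The pairwise correlations of one tissue bore little relation to those of the other. Over pairs of the 102 members in both fits, Spearman's rho between the head and the trunk correlation was 0.07, as a description across pairs that share contigs. The pair contig48063 and isotig126394 was close in both, with r = 0.81 in head and 0.99 in trunk, and LMB_Assem.7621.C1, the highest in head by mean correlation, had a mean of 0.04 in trunk.

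Of the treatment tests in head kidney, none called a member (0 of 102 in each of the 3), and 0% of the 38656 contigs tested were called in each. DESeq2 called 1 for glyphosate against control (against 0.0389% of all), 0 for Rodeo against control (against 0.13%) and 1 for Rodeo against glyphosate (against 0.332%). With only the 4 unmatched head libraries (control 1, glyphosate 2, Rodeo 2 and 4) 3, 0 and 3 were called, against 0.424%, 0.125% and 0.663%. There glyphosate against control is 1 library against 1, and the only spread in the fit is that between the 2 Rodeo libraries, so these calls and medians describe single libraries. At an unadjusted p under 0.05 stood 15 members for glyphosate against control (14.7%, against 6.42% of all), 12 for Rodeo against control (11.8%, against 4.7%) and 5 for Rodeo against glyphosate (4.9%, against 9.15%). Groups without overlap numbered 1 (0.98%, against 3.47%), 6 (5.88%, against 3.13%) and 0 (0%, against 7.15%). Members that passed the filter through 1 high group had to differ, so these shares carry no weight for the 200. With 1 library left out, the members tested and the share of all contigs moved along with the counts at an unadjusted p under 0.05. For glyphosate against control the lowest was 8 of 103 without glyphosate 3 (7.77%, against 3.17% of all). The highest was 33 of 118 without control 1 (27.97%, against 5.999%), and without glyphosate 1 it was 26 of 126 (20.63%, against 5.34%). For Rodeo against control the lowest was 9 of 106 without Rodeo 1 (8.49%, against 3.76%). The highest was 27 of 118 without control 1 (22.88%, against 5.01%). For Rodeo against glyphosate the lowest was 4 of 103 without glyphosate 3 (3.88%, against 5.245%). The highest was 9 of 106 without Rodeo 1 (8.49%, against 5.04%). With no count filter all 200 entered. The counts were then 55 (27.5%, against 6.90% of all), 36 (18%, against 5.90%) and 17 (8.5%, against 7.88%), and the medians 1.91, 0.96 and -0.60. Medians over the members past the filter moved with single libraries, and are over different members in each fit. These numbered 102 in the main fit, 103 without glyphosate 3, 106 without Rodeo 1 and 111 with only the unmatched libraries. For glyphosate against control the median log2 fold change was 0.95 over members, 0.29 without glyphosate 3 and -0.43 with only the unmatched libraries. For Rodeo against control it was 0.64, 0.13 without Rodeo 1 and -0.48 with only the unmatched libraries. For Rodeo against glyphosate it was -0.50, 0.12 without glyphosate 3, -1.15 without Rodeo 1 and -0.08 with only the unmatched libraries.

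The members of smallest p in head kidney were led by LMB_Assem.12773.C1 and LMB_Assem.4103.C1, higher in glyphosate. Scaled CPM of LMB_Assem.12773.C1 was 0, 0.252, 0 and 0.120 in controls, 0, 167, 6.46 and 23.5 in glyphosate, and 0.874, 0.299, 0.494 and 0.876 in Rodeo. For LMB_Assem.4103.C1 it was 0.987, 0.648, 0 and 0.179 in controls, 0, 157, 5.57 and 19.2 in glyphosate, and 2.29, 1.26, 0.282 and 2.28 in Rodeo. In both, 3 glyphosate libraries lay above all others and glyphosate 1 was at 0. The tests gave edgeR adjusted p = 0.761 against control and 0.451 against Rodeo for each. In trunk kidney LMB_Assem.12773.C1 was at 1015 to 2561 CPM in all 12 libraries, so the head pattern was not seen there at that size.

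The other named members were at or below 9.01 scaled CPM in the head libraries of their comparison, and several were at or near 0 in some. For Rodeo against control, contig62827 was at 0.679, 0.0720, 0 and 0.478 scaled CPM in controls and 1.35, 1.20, 6.56 and 1.23 in Rodeo, without overlap (log2 fold change 3.01 with an SE of 0.98, edgeR adjusted p = 0.987). It was also the first of the higher members for Rodeo against glyphosate (log2 fold change 1.56 with an SE of 0.90, edgeR adjusted p = 0.629), followed by contig59630 (0.75, SE 0.64, edgeR adjusted p = 0.779). Scaled CPM of isotig126394 was 0.538 to 2.22 in controls and 0.0673 to 0.175 in Rodeo, without overlap (edgeR adjusted p = 0.987), and that of LMB_Assem.0.C7829 was 0.180 to 2.27 and 0 to 0.239 (edgeR adjusted p = 0.998). Values of contig65765 were 0, 0.0360, 0 and 0 in controls and 2.96, 0.120, 1.55 and 0 in Rodeo (edgeR adjusted p = 0.977). For glyphosate against control the lower members were LMB_Assem.6685.C1, at 1.79 to 9.01 in controls and 0.537 to 3.63 in glyphosate (edgeR adjusted p = 0.797), and LMB_Assem.0.CB3873, whose lead rested on 7.41 in control 3 (edgeR adjusted p = 0.820).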

How the data were processed

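Counts were deposited by the authors as whole reads per contig, 1 list per library and not normalized, with contigs at 0 left out. The submitters' processing notes name DESeq, edgeR, SAMtools and cutadapt without versions. Which aligner, contig reference and strand setting were used is not given in the sources used here. Per the labels' protocols, libraries were directional and made from polyadenylated RNA, with no molecular identifiers mentioned, so limits for 0 cover counting error only. Near-identical contigs can share reads, which makes single contigs uncertain.

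CPM by library total served for membership and levels. For each tissue, 1 model of its 3 treatment groups was fitted (edgeR 4.0.16, R 4.3.3, filterByExpr, TMM, quasi-likelihood test). The SE is the size of the log2 fold change divided by the square root of F. Correlations used log2 CPM with a prior count of 2. DESeq2 1.42.0 was an alternative. Procedures were tested on simulated data. Libraries of a group differed by more than sampling noise (chi-square per degree of freedom 37.9 to 192).

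On/off contigs reached 1.5 log2 CPM with a gap over 3 between neighbouring libraries and at least 2 libraries on each side, and matched libraries were alike for at least 90%. Same-numbered trunk glyphosate and Rodeo libraries deviated together (4 of 4 correlations over 0.1, 0.107 to 0.207), so a replicate block was tried there and elsewhere. In the other same-numbered comparisons of either tissue 0 or 1 of 4 correlations were over 0.1. Trunk glyphosate and control libraries reached 0.355 when same-numbered and 0.312 when differently numbered. Differently numbered trunk glyphosate and Rodeo libraries had a median of -0.08, with 1 correlation over 0.1. Whether the number in a label marks a shared batch was not tested.

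Members and lists were chosen with earlier results of these data known. Named were the 5 members of highest trunk mean, up to 2 higher and 2 lower of smallest p per comparison, the 2 of highest and of lowest mean correlation in head, the contigs at the limits, the extremes of variation in trunk and the on/off members. LMB_Assem.915.CB4, contig46149 and isotig129505 were added after their values were seen. Lists of marker genes could not be applied for lack of gene names.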

Additional observations from a re-analysis of the deposited data

Results flagged for a closer look

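Of 86 groups of 4 libraries examined, 22 had 1 library far from the other 3 (gap to the nearest over the whole range above 0.829). Each group was examined for a named contig, the members' sum or, in head kidney, the number of members with a count. Chance alone flags about 5% of groups where values are normally distributed. Levels were taken as CPM on a linear scale and not checked for that shape, so 22 of 86 cannot be set against 5%. Contigs named for uneven levels were examined on those same levels. All values printed below are CPM by library total.

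In trunk kidney control 2 stood apart for LMB_Assem.12714.C1 (6805), control 3 for LMB_Assem.12656.C1 (2103), LMB_Assem.2770.C1 (384.7) and LMB_Assem.1428.C7 (13.62), and control 4 for LMB_Assem.638.C1 (1685) and LMB_Assem.6292.C1 (2077). Glyphosate 4 stood apart for LMB_Assem.638.C1 (6.316), LMB_Assem.6292.C1 (10.32) and LMB_Assem.1428.C7 (3136), and Rodeo 3 for LMB_Assem.1428.C7 (44.03).

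In head kidney glyphosate 3 stood apart for LMB_Assem.7621.C1 (5.313), isotig45016 (8.374) and LMB_Assem.0.C7829 (3.872). Glyphosate 2 did so for LMB_Assem.12773.C1 (189.7), LMB_Assem.4103.C1 (178.6) and contig50137 (4.104). Rodeo 1 did so for the members' sum (349.7) and for LMB_Assem.7621.C1 (4.362), Rodeo 3 for contig62827 (6.167) and Rodeo 4 for contig59630 (5.549). Among controls, control 1 stood apart for contig59630 (5.323) and control 3 for LMB_Assem.0.CB3873 (6.483).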

How the results depend on the processing

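No member was called in any of the 6 treatment comparisons with edgeR (0), and this held with the replicate block, library totals, size factors of the median-of-ratios kind, TMM without the members and fits of only the groups compared. DESeq2 called 15 members for trunk glyphosate against control, beside 41 contigs in all (1.92% of the 2135 left with an adjusted p). In trunk it called 1 for Rodeo against control (against 0.147% of all) and 6 for Rodeo against glyphosate (against 0.753%). In head it called 1 for glyphosate against control (against 0.0389%) and 1 for Rodeo against glyphosate (against 0.332%). With only the unmatched libraries the counts were 11, 7 and 7 in trunk, and 3 (glyphosate against control, 0.424%) and 3 (Rodeo against glyphosate, 0.663%) in head. With no count filter they were 4 (0.104%) and 3 (0.198%) for those head comparisons. Leaving out 1 library gave 0 to 2 members for trunk Rodeo against glyphosate (2 without glyphosate 1, against 0.0843% of all) and 0 to 1 for head glyphosate against control (1 without glyphosate 1, against 0.00243%), and 0 in the other 4. The mean correlation was 0.25 in head with a mean count of at least 20, and 0.181 (without glyphosate 3) to 0.318 with 1 library left out. In trunk it was 0.140 with library totals, and 0.124 by Spearman's rho on CPM by library total, which changes the scaling as well. With 1 library left out it was 0.213 (without control 2) to 0.276. The members' trunk sum was 78820 CPM, and 57130 CPM without the 10 of highest mean. A looser or a stricter ratio (by a factor of 2) kept 173 or 168 of the 200, medians over libraries 181 and TMM scaling 182. Of 379 alternative values of 24 named results, 23 newly passed the threshold and 1 reversed, LMB_Assem.0.CB3873 in head glyphosate against control which ran from -1.92 to 0.87 (without control 3) with 1 library left out. The cause was not tested for any of these. The replicate block changed no call of a member. Depth limits the head values, where 102 of the 200 members passed the count filter.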

Other observations

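Among the 200 members, 45 had a partner at a correlation of at least 0.95 across the 12 trunk libraries and 10 of the 102 tested in head kidney had one there. Partners were sought among 200 members in trunk and 102 in head, so these counts cannot be set against each other. Both are on CPM scaled by TMM, and the share of all contigs with such a partner was not counted. The closest pair in trunk was LMB_Assem.12714.C1 with contig46149 (r = 0.996). Trunk CPM of contig46149 was 124, 1481, 247 and 45.0 in controls, 686, 1163, 4.25 and 365 in glyphosate, and 362, 322, 511 and 513 in Rodeo. Both contigs were highest in control 2 and lowest in glyphosate 3. In head kidney LMB_Assem.12714.C1 was highest in glyphosate 3 at 6.84 CPM, while contig46149 had 6 counts in total over the 12 head libraries. Whether these 2 identifiers stem from 1 gene or share reads was not tested.

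The contig with 1 count in all of head kidney, isotig129505, set the upper end of the ratio. It stood at 44.1 to 512 CPM in trunk libraries and at 0.0547 CPM in head glyphosate 2, its only head library. A ratio with 1 count below it has no firm size.

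In head controls 27 members had no count at all.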
